A study of Oryctolagus cuniculus with 4 samples.

Results

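The genes described here encode proteins of the mitochondrial ribosome and of the machinery that imports proteins into mitochondria. They were taken from the array by name: a probe was included when its description named a mitochondrial ribosomal protein or a translocase of the inner or outer mitochondrial membrane, or when its gene symbol began with MRPL, MRPS, TIMM or TOMM. This gave 181 of the 43603 probes, belonging to 62 of the 9823 genes that could be named. Of these genes, 30 encode proteins of the large ribosomal subunit (MRPL), 14 of the small subunit (MRPS), 9 carry the inner membrane prefix TIMM and 7 the outer membrane prefix TOMM. The remaining 2 are KGD4, which the array describes as mitochondrial ribosomal protein S36 and RefSeq names as a subunit of the 2-oxoglutarate dehydrogenase complex, and TIMMDC1, which carries the TIMM prefix and is known as an assembly factor of respiratory complex I.

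Mitochondria keep a small genome of their own and translate its messages on a dedicated ribosome, whose RNA comes from that genome and whose proteins are all encoded in the nucleus. Those proteins, like most proteins of the organelle, are made in the cytosol and enter through the translocase of the outer membrane (TOM). From there, the translocases of the inner membrane (TIM23 for precursors with a presequence, TIM22 for carrier proteins) pass them on, and small TIM proteins escort hydrophobic precursors between the membranes. The preimplantation embryo inherits its mitochondria from the oocyte and turns increasingly to oxidative metabolism as the blastocyst forms.

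Parthenote blastocysts were compared with blastocysts fertilised in vivo, all from New Zealand White Rabbit does and recovered at an age of 6 days. The parthenotes came from oocytes activated by DC electrical pulses followed by cycloheximide and 6-DMAP and were transferred to the oviducts of recipient does until recovery, whereas the controls, labelled untreated, came from inseminated does, so the groups differ in handling and transfer as well as in the absence of sperm. On each of 4 arrays a pool of parthenotes, labelled with Cy3, was hybridised together with a pool of fertilised embryos, labelled with Cy5, and nothing in the labels ties a pool to particular does, so the p-values measure the spread between these pools. No array had the dyes the other way round, so that a dye effect of a probe and a difference between the groups cannot be told apart. Whole blastocysts were pooled, and fewer cells of a type and less RNA per cell cannot be told apart either. Values are log2 ratios of parthenote over fertilised signal, so that a positive value is higher in parthenotes. The signal of a group is the log2 of the intensity after the scanner software had subtracted background and normalised the dyes, and a gene is represented by its brightest probe. The threshold for a call was an adjusted p of 0.05 in limma over all 43595 probes tested.

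Every one of the 181 probes is an oligonucleotide of 60 bases, and 175 of them were well above background in both groups on all 4 arrays. Of the 34 genes with more than 1 probe, 28 had probes at a single site, linked to each other by shared runs of at least 15 bases and often shifted by a single base, so that agreement between such probes is not independent evidence. The probes of the genes on which the results turn are given below because they show what was measured. Capitals mark the 56 bases shared by all 5 probes of MRPL32 and of MRPS15, the 40 bases that the TIMM21 probe shares with its nearest neighbour, and the 16 bases shared by the TIMM8B probes with the lowest and the highest ratio. All are written 5′ to 3′ as in the array files, which do not name their genome build.
MRPL27: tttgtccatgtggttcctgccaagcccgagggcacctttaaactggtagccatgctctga
MRPL32: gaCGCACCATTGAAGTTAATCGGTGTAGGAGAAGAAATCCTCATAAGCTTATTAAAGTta
TIMM10: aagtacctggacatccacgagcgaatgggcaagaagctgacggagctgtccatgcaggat
TIMM21: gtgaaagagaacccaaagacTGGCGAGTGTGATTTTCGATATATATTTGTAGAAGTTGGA
TIMM8B, lowest ratio: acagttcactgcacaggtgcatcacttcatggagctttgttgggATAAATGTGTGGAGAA
TIMM8B, highest ratio: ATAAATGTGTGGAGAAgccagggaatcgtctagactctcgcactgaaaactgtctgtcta
MRPS15: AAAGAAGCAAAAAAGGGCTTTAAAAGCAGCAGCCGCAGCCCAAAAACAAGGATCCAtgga
The MRPL27 probe lies at chr19:37350103-37350162 on the plus strand, the MRPL32 probe at chr10:25838185-25838244 on the plus strand and the TIMM10 probe at chr1:190612273-190612332 on the minus strand. The TIMM21 probe spans chr9:114373776-114373935 on the plus strand, that is 160 bases of the genome, and so crosses a gap between exons. The TIMM8B probe with the lowest ratio likewise spans 1244 bases, chr1:104288872-104290115, whereas the one with the highest ratio lies without a gap at chr1:104290100-104290159, both on the plus strand. The array files give no position for MRPS15. In all, 171 of the 181 probes had a position and 57 of these spanned more than 60 bases of the genome.

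As a group, the mitochondrial ribosome and import genes showed calls in both directions around a median near 0. Of the 62 genes, 8 were higher in parthenotes, 11 were lower and 43 did not pass the threshold, but under another processing of the raw intensities (normexp background correction with each array centred on its median) all 8 higher genes turned negative and 59 of the 62 were called lower. Of all named genes, 11.8% were called higher and 12.2% lower, beside 22.2% and 47.7% under that other processing. The median log2 ratio of the 62 genes was -0.01, beside 0 for all named genes (-0.67 and -0.18 under normexp with median centring), and per array it was -0.001, -0.02, -0.01 and -0.04 on arrays 1 to 4. Ratios were below 0 for 34 of the 62 genes. At the level of probes, 19 were called higher and 32 lower, where 20.6% of all probes tested were called in either direction. The 32 include 1 probe listed under MRPL33 that lies on the opposite strand.

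The changes were small, except under normexp with median centring, where 40 of the 62 genes exceeded 1.5-fold. The largest fold among the genes called was 1.32, for MRPL32, and no called gene passed 1.5-fold, a size that 840 called genes among all those named did pass. The median absolute log2 ratio was 0.13 for the 62 genes and 0.21 for all named genes. For brightness, 61 of the 62 genes were well above background throughout, and among all 6747 named genes with this property 29.3% were called, beside 30.6% of the 62 and 24.0% of all named genes; its part in these shares was not tested. The parthenote signals lay above every fertilised signal for 6 of the 62 genes, against a background of 19.3%, and below every fertilised signal for 9, against 12.5%. The ratio had the same sign on all 4 arrays for 38 genes. That count is given without the share among all named genes, so nothing is read from it.

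**Figure D1:**
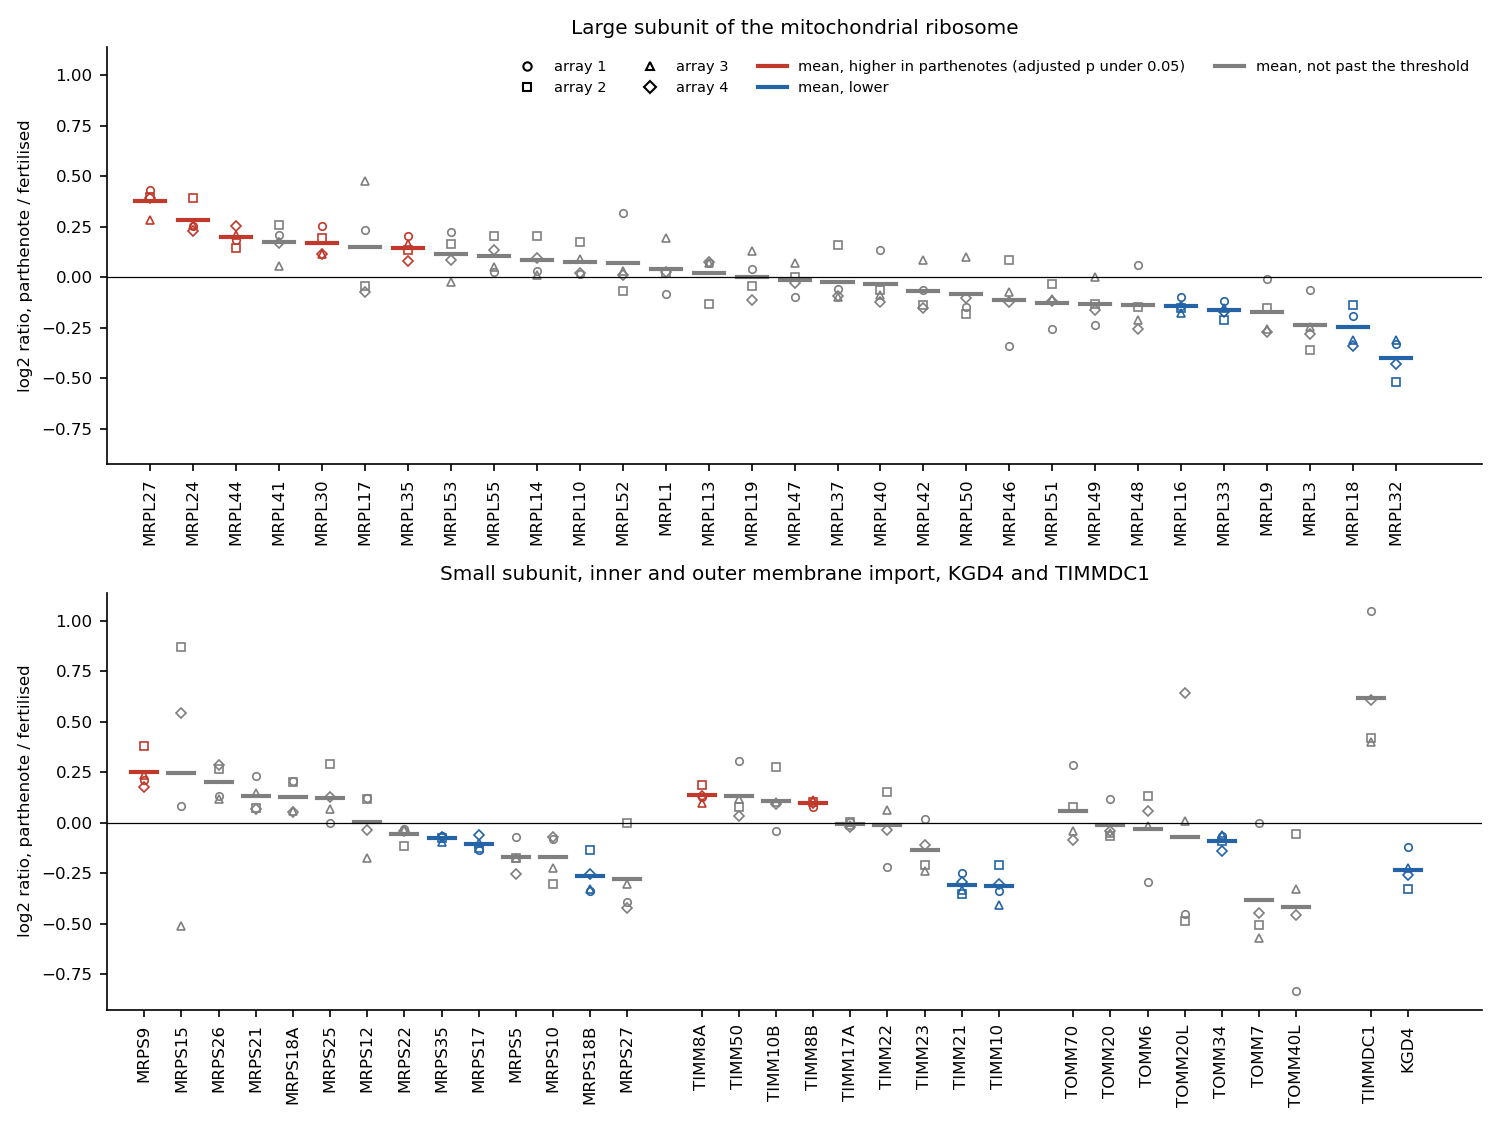
Log2 ratio of parthenote over fertilised signal for each of the 62 genes (1 column a gene), with a symbol for each of the 4 arrays and a bar for their mean, coloured by the call in limma. The 8 red (higher) and 11 blue (lower) means lie between -0.40 and 0.38, the symbols of MRPS15, TOMM20L, TOMM40L, TIMMDC1 and TOMM7 are spread the widest, and the 8 red genes and TIMMDC1 turned negative under normexp with median centring.

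Among the proteins of the large subunit, 5 of 30 genes were called higher and 4 lower, with a median log2 ratio of -0.01 (0 higher and 30 lower under normexp with median centring). The highest mean belonged to MRPL27, the mitochondrial counterpart of a bacterial protein that reaches into the peptidyl transferase centre. Its log2 signal was 13.94, 13.99, 13.79 and 13.73 in parthenotes and 13.51, 13.59, 13.50 and 13.33 in fertilised embryos on arrays 1 to 4. The lowest parthenote pool was thus above the highest fertilised pool, and the groups did not overlap. The mean log2 ratio was 0.38 ± 0.06 (SD, n = 4; limma, adjusted p = 0.012), with 0.43, 0.40, 0.28 and 0.39 on the single arrays.

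MRPL24, another structural protein of the large subunit, had log2 signals of 14.16, 14.30, 14.13 and 13.99 in parthenotes and 13.90, 13.91, 13.87 and 13.76 in fertilised embryos. Again all parthenote pools were above all fertilised pools, and array 2 showed the widest gap. Over the arrays the log2 ratio averaged 0.28 ± 0.07 (SD, n = 4; limma, adjusted p = 0.022). MRPL44, which has a ribonuclease III-like fold, followed at 0.20 ± 0.05 (SD, n = 4; limma, adjusted p = 0.019) and was measured by 2 probes, both called. The ratios of MRPL30 and MRPL35 were smaller still, 0.17 and 0.15 on the log2 scale, and their groups overlapped. The other 2 probes of MRPL30, also called, had means of only 0.08.

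MRPL32 showed the largest fall among the genes called. This protein is known to be trimmed by the m-AAA protease of the inner membrane before it joins the ribosome. Its log2 signal was 11.97, 11.74, 11.91 and 11.77 in parthenotes and 12.31, 12.26, 12.22 and 12.20 in fertilised embryos. All parthenote pools were below all fertilised pools, with the widest gap on array 2. On average the log2 ratio was -0.40 ± 0.10 (SD, n = 4; limma, adjusted p = 0.020), and the 5 overlapping probes lay between -0.43 and -0.40. The array gives more than 1 RefSeq entry for this probe. Whether the entries belong to 1 gene was not checked, and signal from a near-identical copy, if there is any, cannot be separated.

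The other large subunit genes called lower were MRPL18, known for binding a ribosomal RNA that is brought in from the cytosol, MRPL33 and MRPL16. MRPL18 had a mean log2 ratio of -0.25 ± 0.10 (SD, n = 4; limma, adjusted p = 0.043) and its groups overlapped. MRPL33 is a small protein with a bacterial counterpart, and its mean log2 ratio was -0.16. Its 4 overlapping probes were called lower, with ratios from -0.20 to -0.16. The array files place 3 further probes listed under this gene on the opposite strand and pair them with no RefSeq transcript, so their far dimmer signal is not read as MRPL33. MRPL16, a core protein of the subunit, had a mean log2 ratio of -0.14, and its 4 probes were all called lower.

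In the small subunit, 1 of 14 genes was called higher and 3 lower, with a median log2 ratio of -0.03 (0 higher and 14 lower under normexp with median centring). MRPS9, the gene called higher, had log2 signals of 12.68, 12.79, 12.48 and 12.51 in parthenotes and 12.47, 12.41, 12.25 and 12.34 in fertilised embryos. The lowest parthenote pool exceeded the highest fertilised pool only narrowly. Its log2 ratio averaged 0.25 ± 0.09 (SD, n = 4; limma, adjusted p = 0.038). MRPS18B, one of several mitochondrial homologues of bacterial S18, was the lowest of those called, with log2 signals of 10.84, 10.92, 10.71 and 10.73 in parthenotes and 11.18, 11.06, 11.04 and 10.98 in fertilised embryos. The groups did not overlap, and the gap on array 2 was the narrowest. Its mean log2 ratio was -0.27 ± 0.09 (SD, n = 4; limma, adjusted p = 0.037). As for MRPL32, the array gives more than 1 RefSeq entry for this probe, and whether the entries belong to 1 gene was not checked. Signal from a near-identical copy, if there is any, cannot be separated. MRPS17 and MRPS35 were also called lower, at log2 ratios of only -0.11 and -0.08.

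MRPS15, a small subunit protein conserved from bacteria and chosen here after its values were seen, differed most between arrays. Its log2 signal was 10.59, 11.66, 11.08 and 11.24 in parthenotes and 10.51, 10.79, 11.59 and 10.69 in fertilised embryos. The groups overlapped, and the parthenote pool was far above its partner on arrays 2 and 4, far below it on array 3 and close to it on array 1. The log2 ratios were 0.08, 0.87, -0.51 and 0.54, with a mean of 0.25 ± 0.60 (SD, n = 4; limma, adjusted p = 0.61). The 5 probes shared 56 of their 60 bases and gave means from 0.25 to 0.26, so they are a single measurement repeated.

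**Figure D2:**
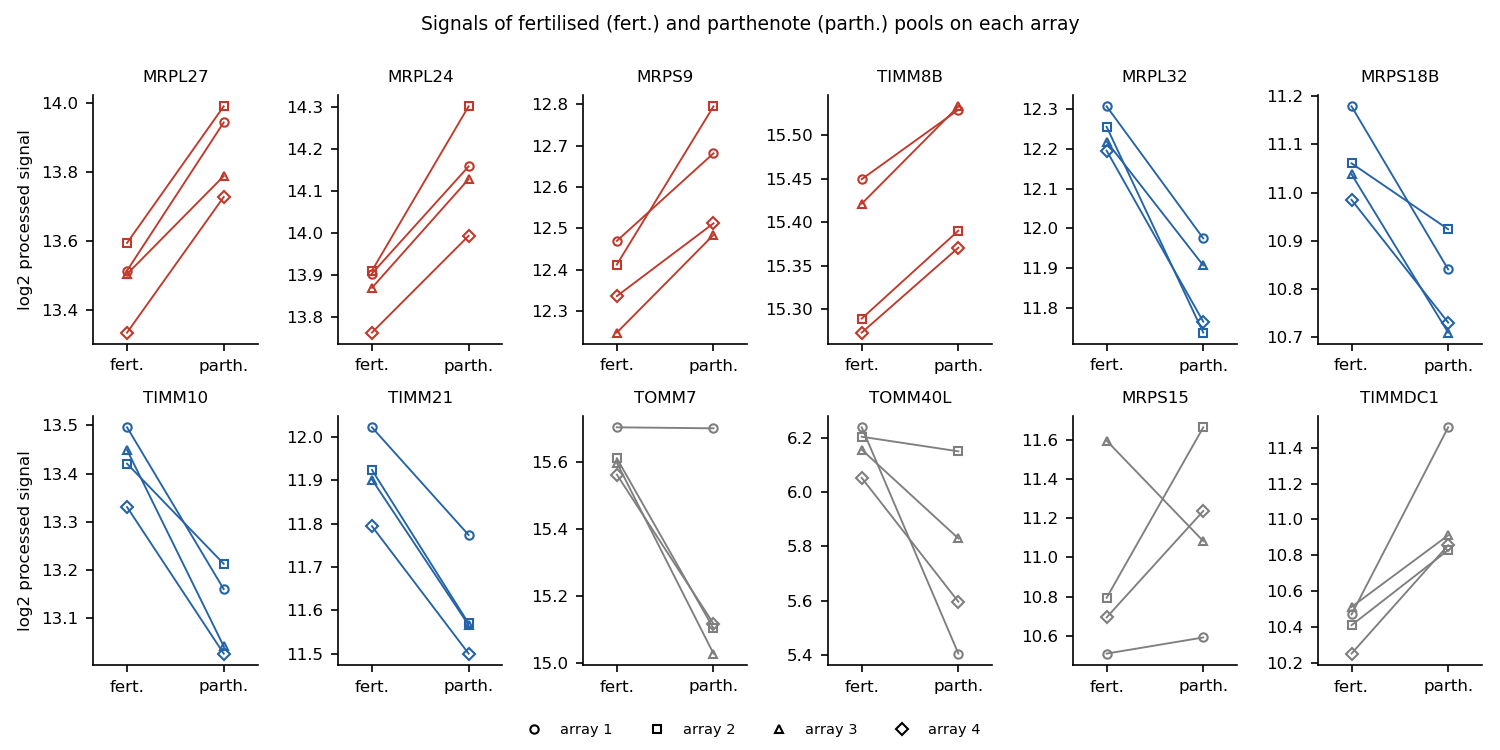
Log2 processed signal of the fertilised (left) and parthenote (right) pool on each array for 12 genes, a line joining the pools of an array, red for genes called higher, blue for lower and grey for those not past the threshold. The axes differ between panels and do not start at 0: the lines of MRPL27, MRPL32, TIMM10 and TIMM21 run in parallel, those of MRPS15 cross, and the line of array 1 differs most from the others in TOMM7 and TIMMDC1; the red genes and TIMMDC1 turned negative under normexp with median centring.

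Among the inner membrane genes, 2 of 9 were called higher and 2 lower, with a median log2 ratio of -0.01 (0 higher and 9 lower under normexp with median centring). Both falls exceeded both rises in size. TIMM10, a small TIM chaperone of the intermembrane space, had log2 signals of 13.16, 13.21, 13.04 and 13.03 in parthenotes and 13.50, 13.42, 13.45 and 13.33 in fertilised embryos. No pools overlapped between the groups. Its log2 ratio averaged -0.31 ± 0.08 (SD, n = 4; limma, adjusted p = 0.023).

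TIMM21, which links the TIM23 complex to the TOM complex and takes part in respiratory chain assembly, had log2 signals of 11.77, 11.57, 11.57 and 11.50 in parthenotes. In fertilised embryos they were 12.02, 11.92, 11.90 and 11.79. The lowest fertilised pool was just above the highest parthenote pool, and the ratio was negative on all 4 arrays. The mean log2 ratio was -0.31 ± 0.05 (SD, n = 4; limma, adjusted p = 0.011). This gene was probed at 2 sites that do not overlap, and all 4 of its probes were called lower, with means from -0.31 to -0.27.

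The genes called higher, TIMM8A and TIMM8B, encode small TIM proteins too, and TIMM8A is mutated in deafness-dystonia syndrome. TIMM8A had a mean log2 ratio of 0.14 ± 0.04 (SD, n = 4; limma, adjusted p = 0.025) and 3 of its 5 probes were called, but the array files place 1 of these on chromosome 13 instead of X and list a further transcript for it. TIMM8B had the smallest ratio of any gene called higher, 0.10 ± 0.01 (SD, n = 4; limma, adjusted p = 0.012), on a signal that overlapped widely between the groups. Its call depended on the probe: of 10 probes, 5 were called higher, and the means ran from -0.06 to 0.13. The probes with the lowest and the highest ratio, both printed above, share 16 bases and begin only at bases 101 and 145 of the transcript. The first had a mean log2 ratio of -0.06 (limma, adjusted p = 0.13) and the second 0.13 (limma, adjusted p = 0.015).

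The remaining inner membrane genes did not pass the threshold. They were the channel protein TIMM23 at a mean log2 ratio of -0.14, its partner TIMM17A at -0.01, the receptor TIMM50 at 0.13, and TIMM22 and TIMM10B of the carrier translocase at -0.01 and 0.11. The 4 arrays of TIMM17A lay between -0.02 and 0.01, the narrowest range around 0 in this group.

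**Figure D3:**
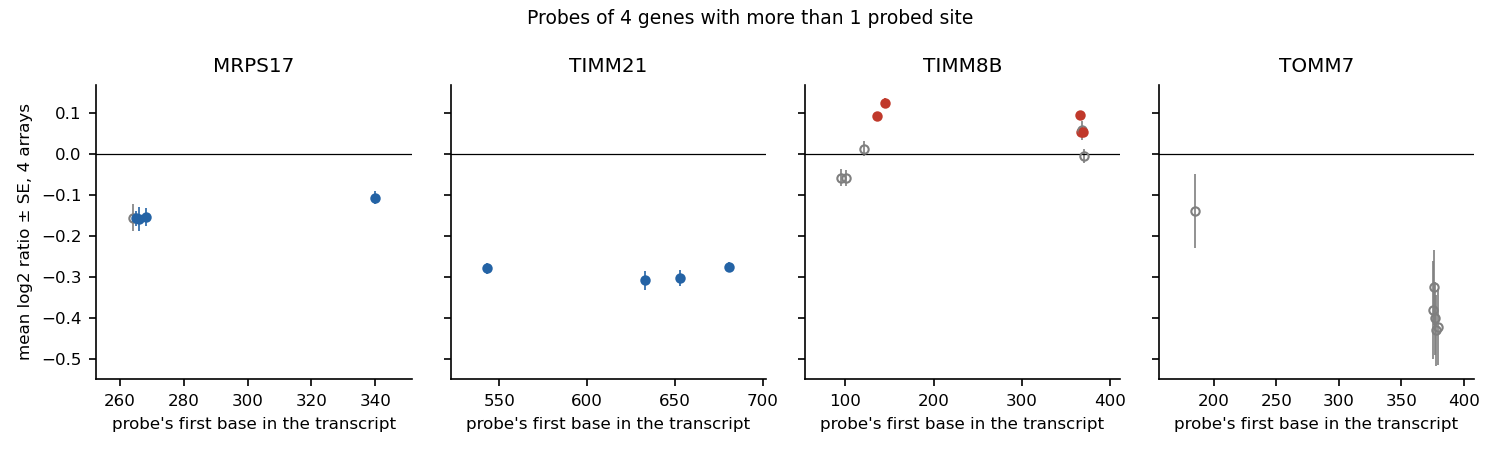
Mean log2 ratio with its SE over 4 arrays for each probe of MRPS17, TIMM21, TIMM8B and TOMM7 against the probe's first base in the transcript as given by the array files; filled symbols passed the threshold (blue lower, red higher). The 4 TIMM21 probes lie at about the same ratio, those of TIMM8B run from -0.06 to 0.13, and the single upstream TOMM7 probe (-0.14) is closer to 0 than the 5 downstream ones; the TIMM8B gene value turned negative under normexp with median centring.

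Of the 7 outer membrane genes, 0 were called higher and 1 was called lower, with 0 higher and 5 lower under normexp with median centring. Their median log2 ratio was -0.07, the value of the dim TOMM20L itself, and -0.06 with the filter on dim probes. At an unadjusted p under 0.05, limma counted 0 of them higher and 2 lower, beside 20.1% and 22.1% of all named genes, and the methods' t-test called 0 in either direction. TOMM34, a cytosolic co-chaperone of preproteins, was the gene called, at a log2 ratio of -0.09 ± 0.04 (SD, n = 4; limma, adjusted p = 0.047). The presequence receptor TOMM20 and the carrier receptor TOMM70 had mean log2 ratios of -0.01 and 0.06, and the small subunit TOMM6 had -0.03 from a single dim probe.

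TOMM7, a small protein that modulates the assembly of the TOM complex, had a larger mean with a wider spread. Its log2 signal was 15.70, 15.10, 15.03 and 15.12 in parthenotes and 15.70, 15.61, 15.60 and 15.56 in fertilised embryos. The pools of array 1 were equal, whereas on arrays 2, 3 and 4 the parthenote pool was well below every fertilised pool. The mean log2 ratio was -0.38 ± 0.26 (SD, n = 4; limma, adjusted p = 0.12), which did not pass the threshold. TOMM7 did pass under some other settings, among them the ratio of the processed signals, normexp with loess and the dim-probe filter. Of the fits with an array left out, it passed only without array 1, the array that differed (-0.51; limma, adjusted p = 0.030), which is no independent test. Without array 2, 3 or 4 the mean lay between -0.36 and -0.32 (limma, adjusted p between 0.31 and 0.33). The probe nearer the start of the transcript had a mean of -0.14 and lists a further transcript, and the 5 overlapping probes downstream had means from -0.43 to -0.32.

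TOMM40L, a homologue of the import pore protein, was dim, with log2 signals of 5.41, 6.15, 5.83 and 5.60 in parthenotes and 6.24, 6.20, 6.16 and 6.05 in fertilised embryos. The parthenote pool was the lower on each array, by most on array 1 and least on array 2. The mean log2 ratio was -0.42 ± 0.32 (SD, n = 4; limma, adjusted p = 0.15). TOMM20L, a homologue of TOMM20, was well above background on only 1 array in each group, and its log2 ratios of -0.45, -0.48, 0.01 and 0.64 have no settled direction.

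TIMMDC1 had the largest ratio of the 62 genes and the only one above 1.5-fold, but it turned to -0.02 under normexp with median centring. Without array 1, with normexp and loess, and with the probes of each gene averaged, 0 of the 62 genes exceeded 1.5-fold. Its log2 signal was 11.51, 10.83, 10.91 and 10.86 in parthenotes and 10.47, 10.41, 10.51 and 10.25 in fertilised embryos. All parthenote pools lay above all fertilised pools, array 1 by far the most. The log2 ratios were 1.05, 0.42, 0.40 and 0.61, and the mean of 0.62 ± 0.30 (SD, n = 4; limma, adjusted p = 0.064) did not pass the threshold. TIMMDC1 did pass with the ratio of the processed signals, normexp with loess and the dim-probe filter. The 5 probes had means from 0.44 to 0.62, and none was called. KGD4 was called lower at a log2 ratio of -0.23 ± 0.09 (SD, n = 4; limma, adjusted p = 0.040), as were all 5 of its overlapping probes, and its groups did not overlap.

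Fewer genes passed the threshold with 3 arrays than with 4. Of the 19 genes called, 7 kept their call without array 1, 1 without array 2, 3 without array 3 and 0 without array 4, and the sign of the ratio turned in none of them. The same held for all named genes, of which 24.0% were called with 4 arrays and 15.1%, 5.16%, 6.55% and 3.26% without array 1, 2, 3 and 4. For the 62 genes the shares were 30.6% with 4 arrays and then 14.5%, 3.23%, 4.84% and 0%. At an unadjusted p under 0.05, limma still counted 30, 27, 26 and 21 of the 62 genes without array 1, 2, 3 and 4, where the shares of all named genes were 39.8%, 33.9%, 33.6% and 31.4%. The methods' t-test called 4 of the 62 genes higher and 6 lower with all arrays, and 5.59% and 6.2% of all named genes.

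**Figure D4:**
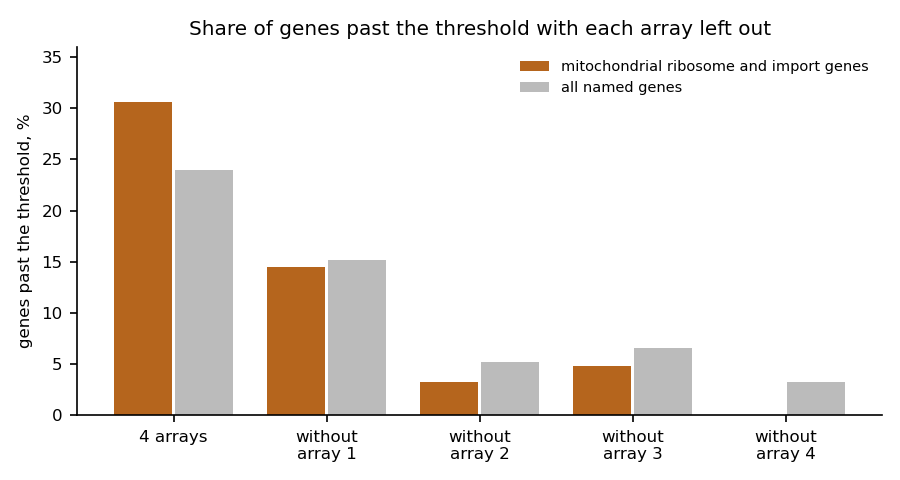
Percentage of genes past the threshold in limma with all 4 arrays and with each array left out, for the 62 mitochondrial ribosome and import genes (brown) and for all 9823 named genes (grey). Both shares fall with any array left out, the former from 30.6% to between 0 and 14.5%.

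The other genes of the pathway were followed through lists by function. Among all named genes, limma called 11.8% higher and 12.2% lower, and 20.1% and 22.1% had an unadjusted p under 0.05. The methods' t-test called 5.59% higher and 6.2% lower, and normexp with median centring gave 22.2% and 47.7%. The counts of every list below stand beside these shares. Of the mitochondrial translation factors, 0 of 9 genes were higher and 3 lower (0 and 9 under normexp with median centring), with a median log2 ratio of -0.25; at an unadjusted p under 0.05 limma counted 0 higher and 5 lower, and the methods' t-test called 0. TACO1, an activator of the translation of a cytochrome oxidase subunit, had log2 ratios of -0.15, -0.43, -0.40 and -0.43 with a mean of -0.35 (limma, adjusted p = 0.041), and the release factor homologue MTRF1L had a mean of -0.30 (limma, adjusted p = 0.035). Of 12 mitochondrial tRNA synthetases, 1 was higher and 4 were lower (1 and 0 by the methods' t-test, 0 and 10 under normexp with median centring), with a median of -0.11. LARS2 and HARS2, which charge leucine and histidine tRNAs, had the lowest means, -0.46 (limma, adjusted p = 0.033) and -0.37 (limma, adjusted p = 0.036). The median of all named genes was 0.

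For the assembly of the mitochondrial ribosome, 1 of 10 genes was higher and 0 lower (0 and 10 under normexp with median centring), with a median log2 ratio of -0.05, where an unadjusted p under 0.05 in limma gave 2 and 3 and the methods' t-test called 0. The gene called was MALSU1, a factor of large subunit assembly, at 0.35 (limma, adjusted p = 0.026). Of 3 further ribosomal proteins that do not carry the MRP prefix, DAP3 of the small subunit was higher at 0.17 (limma, adjusted p = 0.019), whereas all 3 were lower under normexp with median centring. Of 12 genes for expression and upkeep of mitochondrial DNA, 3 were higher and 2 lower (0 and 1 by the methods' t-test, 0 and 11 under normexp with median centring). The extremes were TFB2M, a mitochondrial transcription initiation factor, at 0.53 (limma, adjusted p = 0.036) and TRMT10C, a subunit of mitochondrial RNase P, at -0.27 (limma, adjusted p = 0.023). Of 8 regulators of mitochondrial biogenesis only MYC was called, lower at -0.15 (limma, adjusted p = 0.039), and the methods' t-test called 0, whereas all 8 were lower under normexp with median centring. The 13 genes encoded by the mitochondrial genome, 0 of which matched a named probe, were not analysed here.

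Among 17 partners of import, 3 genes were higher and 3 lower (3 and 2 by the methods' t-test, 0 and 16 under normexp with median centring), with a median log2 ratio of -0.06. VDAC3, a channel of the outer membrane, had the lowest mean, -0.58, with ratios of -0.48, -0.50, -0.85 and -0.48 (limma, adjusted p = 0.030). ROMO1, a small inner membrane protein linked to the TIM23 complex, had the highest, 0.48 (limma, adjusted p = 0.012). The higher genes of this and the preceding lists (MALSU1, DAP3, TFB2M, ROMO1) turned negative under normexp with median centring.

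Subunits of oxidative phosphorylation and proteins of the cytosolic ribosome were set beside them, where limma called 11.8% of all named genes higher and 12.2% lower. Of 48 nuclear subunits of oxidative phosphorylation, 17 were higher and 1 lower (7 and 1 by the methods' t-test, 1 and 45 under normexp with median centring), with a median log2 ratio of 0.14, which turned to -0.81 under normexp with median centring and stayed above 0 under the other settings run on single probes. Per array the median was 0.12, 0.11, 0.14 and 0.12, and 12 genes lay below 0. The highest means were those of NDUFA1 at 0.66 (limma, adjusted p = 0.018) and NDUFB11 at 0.54 (limma, adjusted p = 0.028), both of complex I. Of 33 cytosolic ribosomal proteins, 9 were higher and 4 lower, with a median of 0.03. Under normexp with loess 1 was higher and 17 lower with a median of -0.15, with the background repaired 5 and 18 with -0.17, and with median centring 0 and 33 with -1.20. RPS27L and RPL22L1, paralogues of ribosomal proteins, were the extremes at 0.69 (limma, adjusted p = 0.0043) and -0.48 (limma, adjusted p = 0.012). NDUFA1, NDUFB11 and RPS27L turned negative under normexp with median centring, and differences between the lists were not tested.

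**Figure D5:**
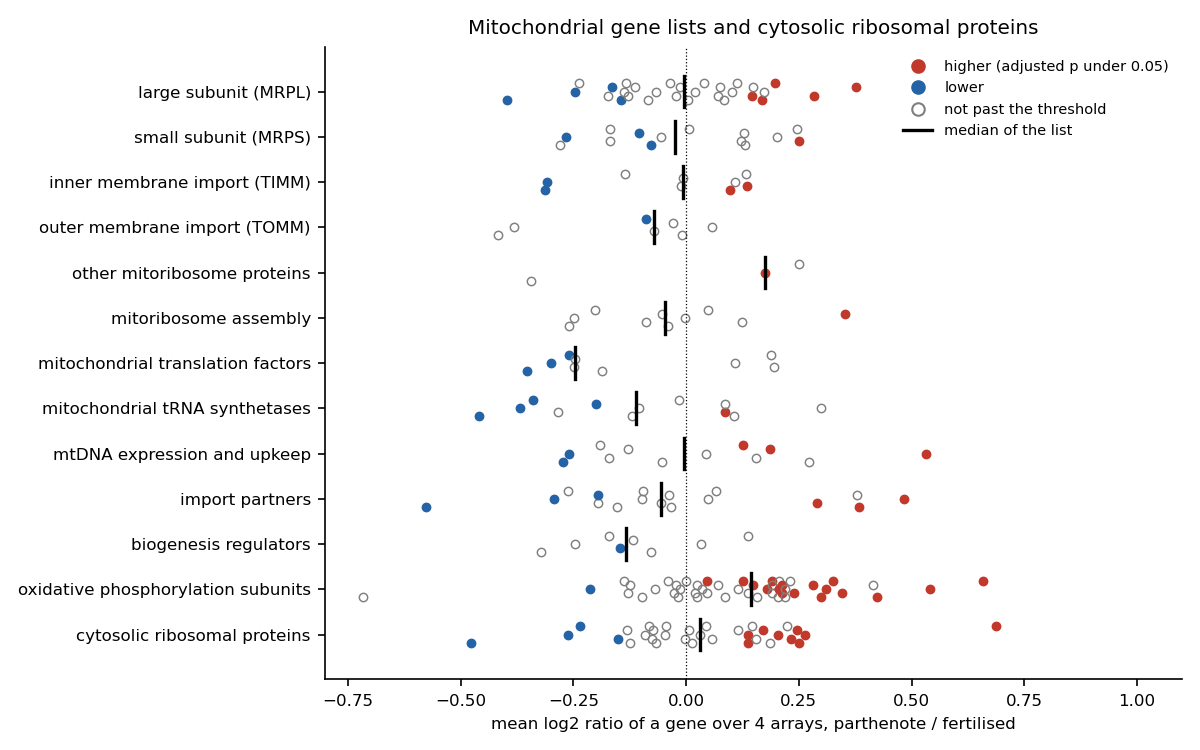
Mean log2 ratio of each gene over 4 arrays (points), with the median of its list (bar), for the genes of the mitochondrial ribosome and import and for 9 other lists; filled points passed the threshold. The MRPL, MRPS and TIMM medians lie at -0.01, -0.03 and -0.01, translation factors at -0.25 and oxidative phosphorylation subunits at 0.14; under normexp with median centring this last median was -0.81 and the named higher genes turned negative.

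Genes used as markers of other cells were also measured, and most of those of motile cilia and secretory epithelium were called higher in parthenotes. Among all named genes 11.8% were called higher and 12.2% lower. Which cells the marker transcripts came from was not tested. Of 14 genes of motile cilia measured, limma called 10 higher in parthenotes and 0 lower (13 and 0 at an unadjusted p under 0.05, 6 and 0 by the methods' t-test), with a median log2 ratio of 2.23 and of 0.72 under normexp with median centring. Their summed signal was 3092, 1753, 4988 and 3104 in parthenotes and 630, 579, 693 and 551 in fertilised embryos, CAPS was the brightest, and the defining factor FOXJ1 was not well above background on any array in either group. A further 5 of the 14 were not well above background in any fertilised pool, so their ratios are bounds. Of 10 genes of secretory epithelium, 7 were higher and 0 lower (7 and 1 unadjusted, 4 and 0 by the methods' t-test), with a median of 2.26, summed signals of 10467, 16370, 36418 and 21505 against 5872, 7051, 8707 and 4959, and WFDC2 as the brightest. The median of these 10 genes was 1.30 under normexp with median centring, with 8 higher and 1 lower, and 1.61 under normexp with loess. The summed signal of the 62 mitochondrial genes was 605610, 569490, 545120 and 518380 in parthenotes and 586920, 577320, 566470 and 539760 in fertilised embryos, higher in parthenotes only on array 1. The part of such cells in the ratios of the mitochondrial genes was not tested.

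Among leukocyte markers 5 of 12 were higher and 0 lower (6 and 0 unadjusted, 4 and 0 by the methods' t-test), and CD3E and PTPRC were not well above background in either group. Of 3 erythroid and 10 stromal genes, 1 each was higher (ALAS2 and TAGLN), but under normexp with median centring 2 and 6 were, and of the stromal genes 4 were higher with the background repaired and 3 with the ratio of the processed signals. Only 1 of these erythroid and 3 of these stromal genes were well above background in both groups on all 4 arrays. EPB42, ACTA2, COL1A1, MYH11 and PDGFRB were so on no array in either group. Mean ratios were below 0 for 1 erythroid and 3 stromal genes. The markers of the embryo itself were measured: trophectoderm had 1 of 8 genes higher and 1 lower with KRT8 as the brightest, epiblast 1 of 4 higher, which was POU5F1, and primitive endoderm 1 of 6 higher and 2 lower. Under normexp with median centring the higher and lower counts of these embryo markers were 1 and 5, 0 and 3, and 1 and 4. POU5F1 and KRT8 were well above background in both groups on all 4 arrays.

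Base composition and the number of RefSeq entries of a probe were examined as properties that the choice of genes did not use. Across the 62 genes, which are not independent replicates, the GC percentage of the probe and the mean ratio correlated by 0.19, beside -0.03 across all named genes well above background. Of 15 genes with a probe GC of 50% or more, 10 had a mean ratio above 0, and of the 47 others 18 did. The 19 calls all held after regression on GC. More than 1 RefSeq entry was listed for 29 of the 181 probes and for the chosen probe of 8 genes, without a check that the entries are of different genes. Among the 54 genes without this, 8 were called higher and 9 lower.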

How the data were processed

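RNA of pooled rabbit blastocysts was hybridised to 4 two-colour Agilent arrays, parthenotes in Cy3 and fertilised embryos in Cy5. Per the labels, the authors extracted the spots with Agilent Feature Extraction 10.10.1.1. The mean and background intensity they deposited for each spot are not normalised, whereas the deposited processed intensity is background-subtracted and dye-normalised. The log10 ratio the authors deposited is processed Cy5 over Cy3, and their value table holds it with the sign turned. All columns were matched to samples.

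Here ratios were turned to log2 of parthenote over fertilised, spots marked as outliers (26 to 48 of 43803 per array) were left out, spots of a probe were averaged, and limma 3.58.1 in R 4.3.3 (lmFit, eBayes, two-sided, Benjamini-Hochberg) tested all probes measured on at least 3 arrays. On single arrays, 25805 to 26339 spots exceeded background clearly in the parthenote channel and 27508 to 27835 in the fertilised channel. The number of arrays limits the precision.

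The pairing of pools on an array was checked: deviations from the group means correlated by 0.60, 0.63, 0.62 and 0.65 within arrays 1 to 4 and by about -0.21 between arrays. Each group was centred on the mean of its 4 arrays. This forces the values between arrays to be negative when those within arrays are positive, so nothing is read from them. Without the pairing, 3 of the 62 genes were called higher and 5 lower, 12.9% of them beside 31.5% of all named genes. That fit used the processed signals, whose ratio within arrays gave 30.6% and 43.1%. Gene names came from the RefSeq table of assembly mOryCun1.1 or the array's descriptions (22093 probes). Named genes were all TIMM and TOMM genes, the 5 MRPL and MRPS genes of largest ratio in each direction among those called with the same sign on 4 arrays, KGD4, TIMMDC1 and the 2 called genes of largest ratio in each list of pathway genes. The members, lists and tests were chosen with earlier results of these data known. The fit was tested on simulated data. Alternatives were other background corrections (normexp, offset 50) and centrings, the series' value table, marked spots kept, a filter on dim probes, the methods' t-test, no pairing, an intensity trend, correction for GC, averaging the probes of each gene and each array left out. A repair of faulty local backgrounds was added after seeing the data. Figures were drawn with matplotlib 3.10.9 in Python 3.11.15.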

Additional observations from a re-analysis of the deposited data

Results flagged for a closer look

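In 5 of the 46 named genes 1 array stood apart from the others by Dixon's criterion; chance flags about 1 in 20 groups. The log2 ratio of TOMM20 was 0.116 on array 1 and between -0.06 and -0.04 on the others. Array 1 also stood apart in TACO1 (-0.154, others between -0.43 and -0.40), MALSU1 (0.204, others between 0.39 and 0.41) and ROMO1 (0.362, others between 0.51 and 0.54), each time closer to 0 than the rest. VDAC3 had -0.847 on array 3 and between -0.50 and -0.48 on the others.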

How the results depend on the processing

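The 4 arrays without a dye swap limit all calls. Signs and medians moved the most under normexp with median centring, and the fewest of the 19 calls were kept without array 4 (0 genes). Normexp with median centring moved the median log2 ratio of all named genes to -0.18 and that of the 62 genes to -0.67, called 0 of the 62 higher and 59 lower, and called 3 of their probes higher and 167 lower (all probes: 14806 higher, 16804 lower); the cause was not tested. Named genes that then turned sign were TIMM10B (-0.56), TIMM50 (-0.54), TIMM8A (-0.57), TIMM8B (-0.90), TOMM20L (0.16), TOMM70 (-0.66), MRPL27 (-0.39), MRPL24 (-0.49), MRPL44 (-0.44), MRPL30 (-0.57), MRPL35 (-0.63), MRPS9 (-0.46), TIMMDC1 (-0.018), DAP3 (-0.57), MALSU1 (-0.40), TFB2M (-0.15), ROMO1 (-0.50), RPS27L (-0.39), NDUFA1 (-0.32) and NDUFB11 (-0.30). Normexp with loess moved the median of the 62 genes to 0.013 and called 9 of them higher and 6 lower, 24.2% beside 18.1% of all named genes. It turned TOMM20 (0.048) and TOMM6 (0.0058), neither past the threshold. With the local background repaired the median was 0.020, 6405 of all probes were called higher and 6681 lower, and TIMM22 (0.0075), TOMM20 (0.042) and TOMM6 (0.049) turned.

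The ratio of the processed signals called 13912 probes higher and 7487 lower. The dim-probe filter left 12 member probes called higher. By gene it called 6 of the 62 higher and 9 lower, 24.2% beside 41.2% of the named genes it kept. Without the replicate block (no pairing), 11117 probes were called higher and 5241 lower, 3 of the 62 genes higher and 5 lower, and 8 of their probes higher and 20 lower. The methods' t-test after Benjamini-Hochberg called 2032 probes higher and 2403 lower, 4 of the 62 genes higher and 6 lower, and 7 of their probes higher and 17 lower. TOMM7 and TIMMDC1, not called in the report, passed the threshold with the processed signals (adjusted p = 0.046 and 0.018), normexp with loess (0.028 and 0.031) and the dim-probe filter (0.040 and 0.015).

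With each array left out, all probes called higher ranged from 531 to 2658 and lower from 708 to 3078, the 62 genes called higher from 0 to 2 and lower from 0 to 7, their probes from 0 to 6 and from 2 to 33, and the median of the 62 genes from -0.025 to -0.0016. Signs turned only in genes not past the threshold: TIMM22 (-0.065 to 0.059), TOMM20L (-0.310 to 0.066), TOMM6 (-0.083 to 0.059), TOMM70 (-0.018 to 0.106) and TOMM20 (-0.052 to 0.0084). Of all 735 comparisons of a named gene with an alternative, 504 kept direction and call, 181 lost the call, 17 gained it and 33 turned sign. The 504 include genes that were called in neither fit. They also include all 46 comparisons with the series' value table, which holds the same ratios, so that its result was fixed in advance.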
